A study of Mus musculus with 6 samples.

Results

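In HOXA9 OFF cultures at 96 h, 411 of the 1510 cells that passed the quality filters carried at least 10 unique molecular identifiers (UMIs, each standing for 1 captured RNA molecule) of Ltf, which encodes lactoferrin, the iron-binding protein of the secondary granules of neutrophils. These Ltf-rich cells were 27.2% of the library (exact 95% binomial interval, 25.0 to 29.5), and all 6 libraries together held 5872 kept cells. Cells were kept with 200 to 6000 detected genes and at most 10% of UMIs from mitochondrial genes. The cells were selected on Ltf, so its own level is a description of the choice and not a finding, and the other genes of the same cells are described without a test.

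The 6 libraries came from immortalised granulocyte-macrophage progenitors of mouse (iGMPs, labelled strain C57BI/6) that carry a Lys-GFP reporter and the estradiol-dependent fusion Hoxa9::ER, and that grow as progenitors with stem cell factor and estradiol. In HOXA9 OFF, a clone with a control vector that encodes no hairpin against Chaf1b (shCTRL) was washed free of estradiol, which inactivates the fusion, and in CAF-1 OFF a clone with an IPTG-inducible hairpin against Chaf1b received IPTG while estradiol stayed in the medium. Live cells were sorted at 0, 48 and 96 h, and each time point of each arm gave 1 library of 1 clone. A library has no replicate, so the intervals given here cover counting error only.

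Neutrophils load their granules in waves as they mature. Primary (azurophil) granule genes such as Mpo, Elane and Prtn3 are transcribed in promyelocytes, secondary (specific) granule genes such as Ltf, Camp, Ngp and Lcn2 in myelocytes and metamyelocytes, and tertiary (gelatinase) granule genes such as Mmp9 later, before receptors of the mature cell such as Cxcr2 appear. The transcription factor C/EBP-epsilon, encoded by Cebpe, is required for secondary granules, and S100a8 and S100a9, the subunits of calprotectin, are abundant in the cytosol of maturing neutrophils.

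The proximal promoters of Ltf and of 3 secondary granule genes that were high in the same cells are shown because C/EBP factors are known to act at such promoters. Each is RefSeq sequence of GRCm38.p6 from 250 bases before to 50 bases after the annotated start, read 5′ to 3′ on the strand of the gene, and capitals mark matches to TTNNGNAA or its reverse complement TTNCNNAA, a C/EBP-type motif written after these promoters had been seen. Ltf lies at chr9:111019042-111019341 on the plus strand, Ngp at chr9:110419558-110419857 on the plus strand, Camp at chr9:109849407-109849706 on the minus strand and Lcn2 at chr2:32387690-32387989 on the minus strand.
Ltf: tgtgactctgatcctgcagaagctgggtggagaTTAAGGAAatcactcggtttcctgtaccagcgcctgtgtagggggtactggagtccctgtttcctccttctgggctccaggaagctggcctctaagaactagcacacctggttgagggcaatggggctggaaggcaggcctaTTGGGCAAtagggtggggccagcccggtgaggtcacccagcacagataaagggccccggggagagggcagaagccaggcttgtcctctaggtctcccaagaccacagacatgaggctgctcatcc
Ngp: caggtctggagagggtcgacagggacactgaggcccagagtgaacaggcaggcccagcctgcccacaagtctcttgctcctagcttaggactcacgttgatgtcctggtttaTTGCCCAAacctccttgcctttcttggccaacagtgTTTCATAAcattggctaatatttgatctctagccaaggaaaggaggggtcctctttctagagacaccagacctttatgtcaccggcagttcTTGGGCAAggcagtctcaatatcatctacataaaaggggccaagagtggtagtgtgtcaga
Camp: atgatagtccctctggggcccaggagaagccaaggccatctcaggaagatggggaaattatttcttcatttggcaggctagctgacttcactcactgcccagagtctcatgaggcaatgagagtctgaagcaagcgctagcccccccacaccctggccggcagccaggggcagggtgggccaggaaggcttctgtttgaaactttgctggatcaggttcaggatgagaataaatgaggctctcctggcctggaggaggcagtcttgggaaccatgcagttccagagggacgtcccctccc
Lcn2: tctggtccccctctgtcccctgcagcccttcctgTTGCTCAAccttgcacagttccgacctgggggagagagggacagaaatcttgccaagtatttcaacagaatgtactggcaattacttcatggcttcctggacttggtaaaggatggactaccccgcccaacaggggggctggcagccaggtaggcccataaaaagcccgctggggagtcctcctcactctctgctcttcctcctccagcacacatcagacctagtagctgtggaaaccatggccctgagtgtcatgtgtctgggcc

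Ltf held 2 matches, Ngp 3, Lcn2 1 and Camp 0. The 2 matches of Ltf began 217 and 75 bases before the start, those of Ngp 138, 102 and 11 bases before it, and that of Lcn2 216 bases before it. The motif is common, with at least 1 match in 40.7% of 27025 promoter windows (95% interval, 40.1 to 41.3) and in 1003 of the 3015 windows found for the 3876 genes compared (33.3%, 31.6 to 35.0). Of the 40 genes at least 2-fold higher in Ltf-rich cells, in the comparison given further on, 31 had a window and 17 of these held a match (54.8%, 36.0 to 72.7), and of the 167 genes at least 2-fold lower, 49 of 123 windows did (39.8%, 31.1 to 49.1). The windows of the higher genes include those of Ngp, Camp and Lcn2, which had been seen before the motif was written. The higher and lower genes were also taken from these same data, so the shares are a description and enrichment was not tested. A match is a run of letters and not a bound site. Camp, Ngp and Ltf lie on the same chromosome, within 1195.4 kb of chromosome 9 (Camp at 109847377 to 109849456, Ngp at 110419808 to 110423012 and Ltf at 111019292 to 111042766), and Lcn2 lies at 32384637 to 32387739 on chromosome 2.

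Ltf-rich cells were found in the HOXA9 OFF arm after estradiol had been withdrawn. No cell reached 10 Ltf UMIs in CAF-1 OFF at 0, 48 or 96 h or in HOXA9 OFF at 0 h, and these 4 libraries held 0 Ltf UMIs in their kept cells. A count of 0 allows shares of up to 0.464%, 0.324% and 0.329% in CAF-1 OFF at the 3 time points and 0.634% in HOXA9 OFF at 0 h. At 48 h of HOXA9 OFF, 22 of 1404 cells qualified (1.57%, 0.985 to 2.36), and Ltf summed to 143 CPM (the UMIs of a gene per 1000000 UMIs of the cells added together) against 3720 CPM at 96 h. The filters kept 473 of 1400 barcodes of HOXA9 OFF at 0 h and 647 of 1110 of CAF-1 OFF at 0 h. Kept cells per library ranged from 473 to 1510, total UMIs from 3524285 to 5589486 and median UMIs per cell from 2043.5 to 8660. The library at 96 h of HOXA9 OFF had the lowest of these totals and medians. Of its barcode sequences, 16 also occurred in another library, 4 of them in Ltf-rich cells.

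Ltf did not split the library into separate peaks. Of the 1510 cells, 584 had 0 Ltf UMIs, 369 had 1 to 4, 146 had 5 to 9, 204 had 10 to 19, 149 had 20 to 49 and 58 had 50 or more. Ltf-rich cells carried from 10 to 107 Ltf UMIs with a median of 20, which was 0.239% to 3.38% of the UMIs of a cell with a median of 0.902%. They held 11431 of the 13109 Ltf UMIs of the library (87.2%), and the 42 cells with most Ltf held 29.9% of those. The minimum of 10 UMIs is a point on a range: the 57 cells just outside it, with 8 or 9 UMIs, had 15779 CPM of Ngp, 7052 CPM of Camp and 4604 CPM of Anxa1, and the 38 cells just inside it, with 10 or 11 UMIs, had 19126, 9107 and 4356 CPM.

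**Figure D1:**
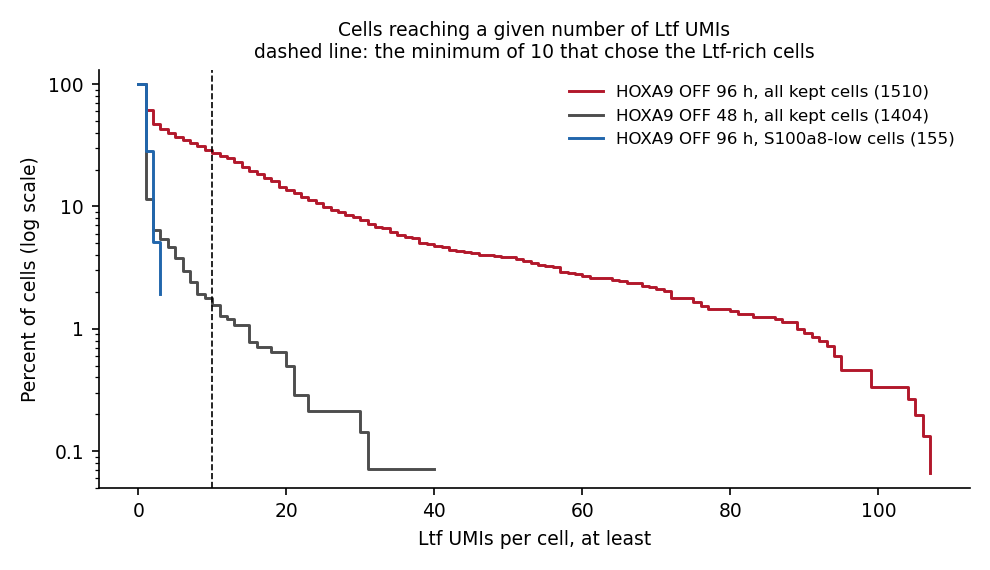
Percent of cells (log axis) with at least the number of Ltf UMIs on the x axis, for all 1510 kept cells of HOXA9 OFF 96 h, the 1404 of HOXA9 OFF 48 h and the 155 S100a8-low cells of the 96 h library. The dashed line marks 10 UMIs, which 27.2% of cells reached at 96 h and 1.57% at 48 h, and the curves fall without a step at the line.

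The label of secondary-granule neutrophils was checked against markers. Every Ltf-rich cell carried at least 10 UMIs of S100a8 (12 to 638, median 203) and of S100a9 (36 to 493, median 163), and Lcn2 was detected in all of them. Ngp had 0 UMIs in 10 of the 411 cells and Camp in 15. Ly6g, the surface antigen of mouse neutrophils, summed to 943 CPM, Mmp8 to 5494, Mmp9 to 769, Itgam to 288, Csf3r to 130 and Cxcr2 to 149. The 12 genes of a primary granule list summed to 1730 CPM. Its myeloperoxidase and serine protease genes were near 0, with 1 UMI of Mpo, 0 of Elane, 2 of Ctsg and 5 of Prtn3 among 1043999 UMIs. Serpinb1a (795 CPM), a protease inhibitor, and Cd63 (773 CPM) made up most of the sum. Of the other cell types the library could hold, erythroid genes summed to 1 UMI, lymphoid genes to 4, megakaryocyte genes to 7 and dendritic cell genes to 12. Mast cell or basophil genes summed to 55 UMIs, from 2 of 10 genes, and 7 genes not expressed in blood to 0. Ms4a6c, Ccr2 and the rest of a 10-gene monocyte list summed to 169 CPM with Fn1 and Ly86 at 0, and 9 eosinophil genes to 456 CPM with Epx and Ear6 at 0.

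Ltf-rich cells were compared within their own library with 944 other S100a8-rich cells (at least 10 UMIs of S100a8 and under 10 of Ltf), and with all 1099 remaining cells, which add 155 S100a8-low cells. Median UMIs per cell were 2251 in Ltf-rich cells, 1869 in other S100a8-rich cells and 2718 in S100a8-low cells. Monocyte genes moved with this comparison: their sum was 1247 CPM in other S100a8-rich cells and 2609 CPM in S100a8-low cells, and at least 3 monocyte UMIs were found in 201 of the 944 cells and in 10 of the 411. The counts of genes and the main genes are therefore also given against 724 cells, called monocyte-depleted S100a8-high cells here, that had at least 50 S100a8 UMIs, fewer than 3 UMIs of the monocyte list and fewer than 10 of Prg2. This last set was drawn after the data had been seen and its monocyte genes summed to 322 CPM. The part of monocyte RNA in the differences was otherwise not tested.

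Against other S100a8-rich cells, 40 of 3876 genes were at least 2-fold higher in Ltf-rich cells (1.03%) and 167 were at least 2-fold lower (4.31%), on the scale of log2(CPM + 10). Against all remaining cells, 56 of 3948 genes were at least 2-fold higher (1.42%) and 275 lower (6.97%). Against monocyte-depleted S100a8-high cells, 32 of 3726 were higher (0.859%) and 47 lower (1.26%). Of the 40 higher genes, 25 were also at least 2-fold higher than in monocyte-depleted cells, whereas of the 167 lower genes 118 could be compared there and 41 were still at least 2-fold lower. The split between higher and lower depends on the scaling. Ltf-rich cells spend more of their UMIs on a few abundant genes, and the median gene lay at -0.20 on this log2 scale. Scaling by trimmed mean of M values (TMM) or by the median of ratios moved the median gene up by 0.22 and gave 90 higher and 117 lower genes (43.5% higher in place of 19.3%). Since 10 CPM was added after scaling, abundant genes moved by more than genes at low level. Against all remaining cells the same scalings gave shifts of 0.25 and 0.28, with 122 higher and 163 lower genes for TMM and 138 and 151 for the median of ratios. Differences near or below these shifts have no settled direction.

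**Figure D2:**
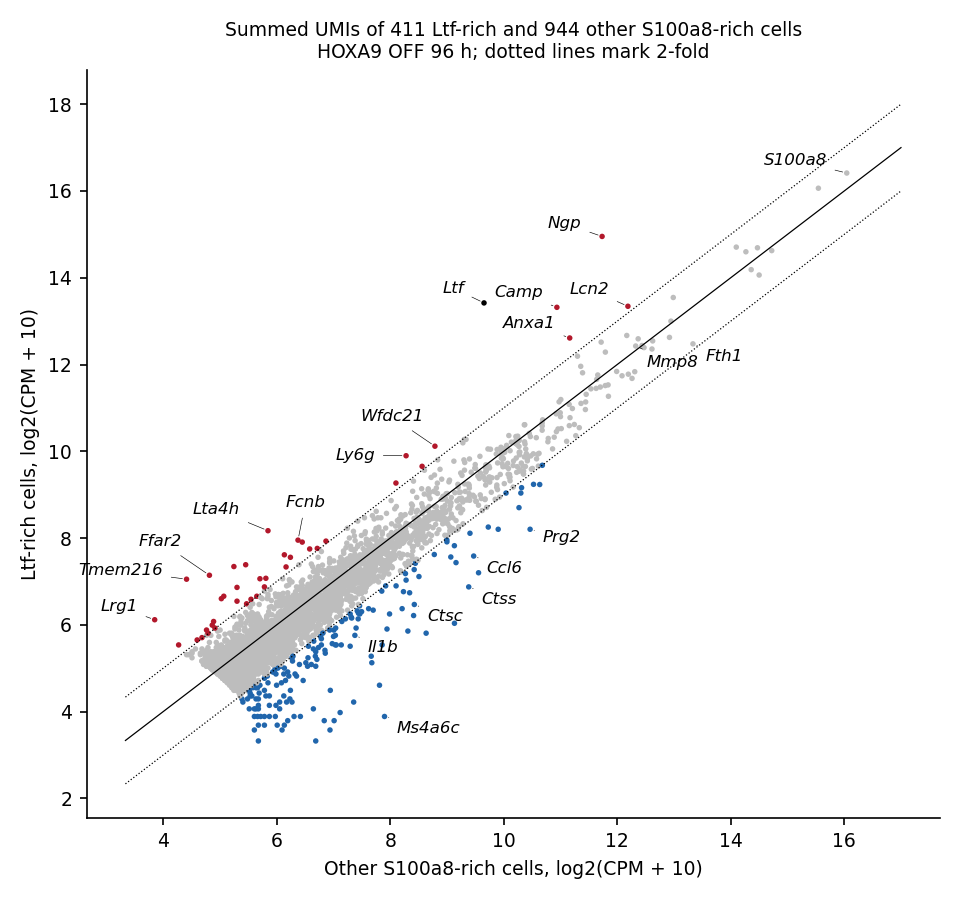
Level of each gene in the 411 Ltf-rich cells (y axis) against the 944 other S100a8-rich cells (x axis), as log2(CPM + 10). Red points are the 40 genes at least 2-fold higher, blue points the 167 at least 2-fold lower, dotted lines mark 2-fold, and Ltf, which chose the cells, is black. Ngp, Camp and Lcn2 stand above the line at high level, while most blue points lie at low level.

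Against other S100a8-rich cells, secondary granule genes had the highest median difference of the lists compared. Ngp encodes neutrophilic granule protein, a cystatin-like granule component. Ltf-rich cells carried 0 to 471 Ngp UMIs with a median of 59, and other S100a8-rich cells 0 to 180 with a median of 2. The groups overlapped, with at least 10 Ngp UMIs in 379 of 411 cells (92.2%) and in 216 of 944 (22.9%). Summed, Ngp was at 31695 CPM against 3394 CPM, a 9.34-fold ratio (95% counting interval, 9.10 to 9.59), and against the 4839 CPM of monocyte-depleted cells the log2 difference was 2.71.

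Camp, the precursor of the cathelicidin antimicrobial peptide, followed with 0 to 298 UMIs per Ltf-rich cell (median 19) and 0 to 62 per other S100a8-rich cell (median 1). At least 10 UMIs were found in 280 (68.1%) and 140 (14.8%) of these cells. The summed level of Camp was 10206 CPM against 1950 CPM (5.24-fold, 5.05 to 5.43). Lcn2, the siderophore-binding lipocalin, was less selective: Ltf-rich cells carried 3 to 86 UMIs (median 24) and the others 0 to 73 (median 8), so that the ranges overlapped over most of their length. Lcn2 was at 10378 CPM against 4657 CPM, 2.23-fold higher (2.17 to 2.29), and at a log2 difference of 0.83 from monocyte-depleted cells. Itgb2l, a beta integrin subunit of the Itgb2 family, was at 230 CPM against 77.4 CPM (2.97-fold, 2.42 to 3.66), and 113 CPM in monocyte-depleted cells.

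Of the 11 secondary granule genes other than Ltf that could be compared, these 4 were at least 2-fold higher and 0 were lower, against 1.03% and 4.31% of all genes, with a median of 0.80 beside -0.20 for all genes. Against monocyte-depleted cells, Camp and Ngp remained past 2-fold and the median was 0.46 beside -0.11. Cd177, a surface antigen stored in secondary granules, was just short of 2-fold on this scale (289 CPM against 141 CPM, log2 difference 0.98), and Pglyrp1, a peptidoglycan-binding protein, was at 5848 CPM against 3355 CPM (0.80). Chil3, a chitinase-like lectin, was at 11941 CPM against 8110 CPM (0.56). From monocyte-depleted cells Cd177, Pglyrp1 and Chil3 differed by 0.66, 0.39 and 0.46. Not every granule gene followed Ltf. The collagenase gene Mmp8 was at 5494 CPM against 5121 CPM, a difference of 0.10 that is smaller than the scaling shift, and Hp, which encodes haptoglobin, was at 909 CPM against 1182 CPM. In monocyte-depleted cells Mmp8 was at 6286 CPM and Hp at 1140 CPM. Cybb and Cyba, the subunits of the membrane cytochrome of the NADPH oxidase, differed by 0.43 and 0.10. Orm1, an acute-phase glycoprotein, was too low for the comparison, with 24 UMIs in Ltf-rich cells and 1 in other S100a8-rich cells, and Olfm4 had 5 and 7.

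The list made up a larger part of the RNA of each Ltf-rich cell even with Ltf itself left out. Without Ltf, the secondary granule genes took 1.89% to 20.2% of a cell's UMIs (median 7.72) in Ltf-rich cells, 0.104% to 13.7% (median 3.26) in other S100a8-rich cells and 0.0633% to 2.60% (median 0.594) in S100a8-low cells. Summed over cells the list was at 81319 CPM against 31835 CPM (2.55-fold, 2.53 to 2.58), and against the 38160 CPM of monocyte-depleted cells the ratio was 2.13 (2.11 to 2.15).

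Detection gave the same order once depth was made equal. With every cell thinned to 1300 UMIs, which left 397 Ltf-rich, 840 other S100a8-rich and 139 S100a8-low cells (14, 104 and 16 were shallower), Ngp was detected in 95.7% (93.2 to 97.5), 63.2% (59.9 to 66.5) and 35.3% of cells. The last share comes from cells with at most 4 Ngp UMIs before thinning. Whether these UMIs came from free RNA or from low expression was not tested. Camp was detected in 91.7%, 51.1% and 10.1% of cells, Ly6g in 57.2%, 26.1% and 5.04%, and Itgb2l in 24.2%, 10.4% and 0 of 139 cells, which allows up to 2.16%. In 626 monocyte-depleted cells the shares were 71.4% for Ngp, 60.2% for Camp, 32.6% for Ly6g and 13.3% for Itgb2l. In each case the share in Ltf-rich cells lay above the others by more than the counting intervals.

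**Figure D3:**
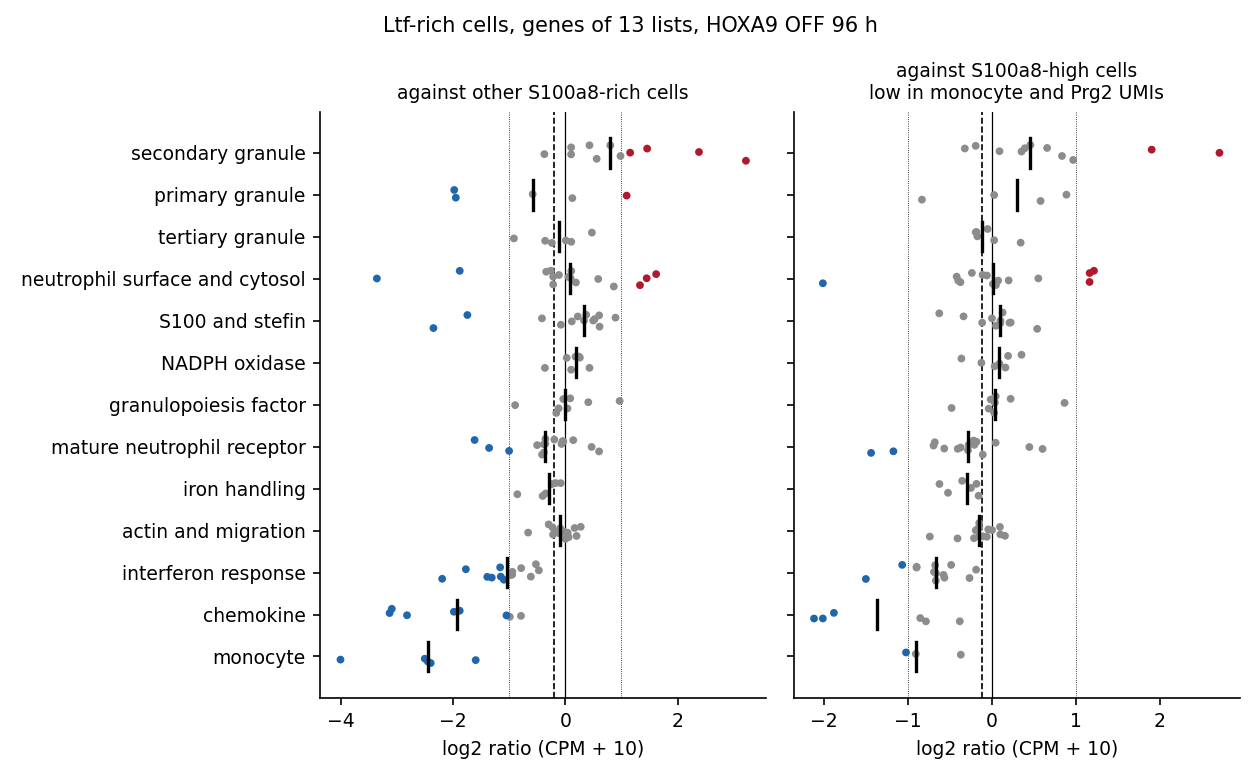
Log2 difference of each compared gene between Ltf-rich cells and other S100a8-rich cells, and between Ltf-rich cells and monocyte-depleted S100a8-high cells, for 13 gene lists. Black bars are list medians and the dashed lines the median of all genes (-0.20 and -0.11). The lists are secondary, primary and tertiary granule, neutrophil surface and cytosol, S100 and stefin, NADPH oxidase, granulopoiesis factor, mature receptor, iron handling, actin and migration, interferon response, chemokine and monocyte genes. Of these 13, secondary granule genes have the highest medians (0.80 and 0.46), and monocyte (-2.45), chemokine (-1.94) and interferon response genes (-1.04) the lowest against other S100a8-rich cells. Among lists not drawn, early granulocyte (0.72, 2 genes) and eosinophil genes (0.54, 3 genes) had higher medians against monocyte-depleted cells, which had been selected for few Prg2 UMIs.

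Primary and tertiary granule genes did not share the pattern of the secondary granule genes in these counts. Over all genes 1.03% were higher and 4.31% lower, and 0.859% and 1.26% against monocyte-depleted cells. A count of 0 in lists this short is near these shares. Of 5 genes of the primary granule list compared, Serpinb1a was at least 2-fold higher and Prtn3 and Ctsc lower, with a median of -0.58. Serpinb1a is on this list as an inhibitor of neutrophil serine proteases and not as one of these proteases. It was at 795 CPM against 368 CPM (2.16-fold, 1.96 to 2.39). Prtn3, which encodes proteinase 3, was at 5 UMIs against 99, and Ctsc, the protease that activates the granule serine proteases, at 78.5 CPM against 333 CPM. Against monocyte-depleted cells 4 of the list could be compared, 0 passed 2-fold in either direction and the median was 0.30. Prtn3 was too low to be compared there. Of 6 tertiary granule genes 0 passed 2-fold in either direction against either set, with medians of -0.12 and -0.11. Mmp9, the gelatinase of these granules, was at 769 CPM against 715 CPM in other S100a8-rich and 881 CPM in monocyte-depleted cells.

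On the mature neutrophil receptor list, which also holds the cytokine gene Il1b, Tlr2, Cd14 and Il1b were at least 2-fold lower and 0 of 16 genes higher. These counts stand against 4.31% and 1.03% of all genes, and the list's median was -0.36. Tlr2, a receptor for bacterial lipoproteins, was at 70.9 CPM against 198 CPM, and Il1b, the cytokine interleukin 1 beta, at 44.1 CPM against 156 CPM (3.54-fold lower, 2.60 to 4.94). Both kept at least a 2-fold difference from monocyte-depleted cells, where Tlr2 was at 172 CPM and Il1b at 137 CPM. Cd14, which monocytes also express, was at 46.0 CPM against 102 CPM and differed by -0.29 from monocyte-depleted cells. Csf3r and Cxcr2, the receptors for G-CSF and for CXC chemokines, were at 130 and 149 CPM. They differed by -0.50 and -0.39 from other S100a8-rich cells. In monocyte-depleted cells they were at 217 and 246 CPM (log2 differences of -0.70 and -0.68). The formyl peptide receptors Fpr1 and Fpr2 differed from other S100a8-rich cells by -0.05 and 0.14.

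Of the S100 and stefin genes, 0 of 13 were at least 2-fold higher, which is near the 1.03% of all genes. S100a8, on which the compared cells had been selected, was at 87299 CPM against 67585 CPM and within 0.05 on the log2 scale of monocyte-depleted cells, and S100a9 at 68489 CPM against 47786 CPM. S100a4 and S100a10 were at least 2-fold lower against other S100a8-rich cells, beside 4.31% of all genes. Of the 11 genes compared with monocyte-depleted cells 0 were, beside 1.26% of all genes. Stfa1, Gm5483 and BC100530 are near-identical stefin genes, and Stfa2 and Stfa2l1 another such pair, so their separate values, from 0.22 to 0.61, are uncertain at the level of 1 gene.

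Among 16 genes of the neutrophil surface and cytosol, Ly6g, Wfdc21 and Anxa1 were at least 2-fold higher and Wfdc17 and Ccl6 lower. Over all genes these shares were 1.03% and 4.31%. Anxa1, the glucocorticoid-inducible annexin of neutrophil cytosol, was carried at 1 to 96 UMIs per Ltf-rich cell (median 13) and 0 to 26 per other S100a8-rich cell (median 4). It reached 10 UMIs in 287 (69.8%) and 110 (11.7%) of these cells, and its level was 6248 CPM against 2282 CPM (2.74-fold, 2.64 to 2.84). Ly6g was at 943 CPM against 301 CPM (3.14-fold, 2.83 to 3.48) and Wfdc21, a small secreted protein with a WAP domain, at 1101 CPM against 432 CPM (2.55-fold, 2.33 to 2.79). All 3 were also at least 2-fold higher than in monocyte-depleted cells, with log2 differences of 1.21, 1.16 and 1.16. Retnlg, a resistin-like secreted protein of mature neutrophils, was at 8181 CPM against 7881 CPM in other S100a8-rich cells and 10951 CPM in monocyte-depleted cells.

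Cebpe transcripts were more abundant in Ltf-rich than in other S100a8-rich cells, and S100a8-low cells had a level near that of Ltf-rich cells. Cebpe was at 883 CPM in Ltf-rich cells, 447 CPM in other S100a8-rich cells (1.98-fold, 1.80 to 2.17), 481 CPM in monocyte-depleted cells and 843 CPM in S100a8-low cells. After thinning it was detected in 58.2%, 38.5% and 54.0% of Ltf-rich, other S100a8-rich and S100a8-low cells. Cebpb, which is linked to emergency granulopoiesis and to macrophages, was at 258 CPM against 489 CPM (log2 difference -0.90) and 363 CPM in monocyte-depleted cells. Of 8 granulopoiesis factors 0 passed 2-fold, with a median of 0.00. This count is near the 1.03% higher and 4.31% lower of all genes. Spi1, which encodes PU.1, was at 1115 CPM against 1050 CPM, and Hoxa9 transcripts were at 56.5 CPM against 54.8 CPM. The counts do not tell the endogenous Hoxa9 gene from the fusion. In the study's bulk RNA sequencing of iGMPs at 48 h, the untranslated ends of Hoxa9 lacked reads in every condition. The authors read this as expression from the fusion alone.

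Outside the lists, the genes with the largest ratios were of mixed function and rested on fewer UMIs. Tmem216, a protein of the ciliary transition zone, was at 123 CPM against 11.3 CPM (10.9-fold, 6.95 to 17.8). Lta4h, the hydrolase that makes leukotriene B4, was at 278 CPM against 47.5 CPM (5.85-fold, 4.63 to 7.44). Ffar2, a receptor for short-chain fatty acids, was at 131 CPM against 18.1 CPM (7.24-fold, 5.01 to 10.7). These 3 genes kept log2 differences of 2.70, 2.12 and 2.26 from monocyte-depleted cells. After thinning, Lta4h was detected in 29.5% (25.0 to 34.2) of Ltf-rich cells, 6.31% (4.76 to 8.17) of other S100a8-rich cells and 7.19% of S100a8-low cells, so most Ltf-rich cells yielded no Lta4h UMI at this depth.

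Lrg1, a secreted leucine-rich glycoprotein that neutrophils also store in granules, was at 59.4 CPM against 4.41 CPM (62 UMIs against 9). Fcnb, the lectin ficolin B that is made at earlier stages of granulopoiesis, was at 238 CPM against 73.0 CPM (3.26-fold, 2.65 to 4.02) and at 61.2 CPM in monocyte-depleted cells. It was detected after thinning in 19.1% (15.4 to 23.4) of Ltf-rich, 6.19% (4.66 to 8.04) of other S100a8-rich and 0.719% of S100a8-low cells. Fcnb stood alone on the early granulocyte list, of which 3 of 8 genes could be compared. Prtn3 and Gstm1, a glutathione transferase, were at least 2-fold lower, beside 4.31% of all genes, and the list's median was -1.50. The list summed to 290 CPM against 275 CPM (1.06-fold, 0.916 to 1.22). Against monocyte-depleted cells 2 of the list were compared, Fcnb higher and Gstm1 at a difference of -0.36. Olfml2b, an olfactomedin-like secreted protein, AA467197, and Cpne3, a copine that binds phospholipid, were at 157, 152 and 186 CPM against 33.8, 27.9 and 60.2 CPM. Nme6, a nucleoside diphosphate kinase family member, Golim4, a Golgi membrane protein, and Trp53inp2, an autophagy factor, were at 91.0, 87.2 and 106 CPM against 23.5, 22.5 and 29.4 CPM. All 6 were also at least 2-fold higher than in monocyte-depleted cells.

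Genes at least 2-fold lower in Ltf-rich cells were of different kinds, those that were also low in monocyte-depleted cells and those that were not. Ms4a6c, a monocyte membrane protein, was at 4.79 CPM against 229 CPM (47.7-fold lower, 20.3 to 148). All 5 monocyte genes compared were at least 2-fold lower, against 4.31% of all genes, with a median of -2.45. In monocyte-depleted cells, where such UMIs had been used for the selection, Ms4a6c was at 3.73 CPM. Ms4a4c and S100a4 had 0 UMIs in Ltf-rich cells, at least 32.4-fold and 14.3-fold lower against a floor of 3 counts over the group, and were at 5.22 and 2.99 CPM in monocyte-depleted cells. The cathepsin gene Ctss, on the same list, was at 107 CPM against 658 CPM and still at 228 CPM in monocyte-depleted cells.

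Several chemokine genes were lower than in monocyte-depleted cells as well. Of 8 compared, 6 were at least 2-fold lower (Ccl2, Ccl4, Ccl5, Ccl6, Ccl9 and Cxcl10) and 0 higher, against 4.31% and 1.03% of all genes. The median was -1.94. Against monocyte-depleted cells 3 of 6 were lower (Ccl2, Ccl6 and Ccl9), beside 1.26% of all genes. This list and the interferon list were written with earlier results known. Ccl6, a CC chemokine of myeloid cells, was at 182 CPM in Ltf-rich, 699 CPM in other S100a8-rich (3.84-fold, 3.30 to 4.49) and 765 CPM in monocyte-depleted cells, and after thinning was detected in 17.4%, 42.3% and 43.6% of them. Ccl9, a related chemokine, was at 55.6 CPM against 551 CPM (9.91-fold lower, 7.61 to 13.1) and 275 CPM in monocyte-depleted cells. Ccl2, the ligand of Ccr2, was at 46.0 CPM against 387 and 196 CPM.

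Of 14 interferon response genes, 7 were at least 2-fold lower and 0 higher, against 4.31% and 1.03% of all genes, with a median of -1.04. Against monocyte-depleted cells 2 of 13 (Ifit3 and Oasl1) were lower, beside 1.26% of all genes. The median there was -0.67 beside -0.11 for all genes. Ifit3, an interferon-induced inhibitor of viral replication, was at 64.2 CPM against 331 and 200 CPM, and Isg15, the ubiquitin-like modifier, at 282 CPM against 568 and 460 CPM. Fth1, the ferritin heavy chain that stores iron, was at 5688 CPM against 10317 CPM (1.81-fold lower, 1.76 to 1.87) and 8778 CPM. The ferritin light chain gene Ftl1 was at 18639 CPM against 21028 CPM. Of 6 iron handling genes 0 passed 2-fold in either direction, a count near the 1.03% and 4.31% of all genes.

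Lists for other functions gave few differences, and their counts are near the shares over all genes (1.03% higher and 4.31% lower). Of 7 NADPH oxidase genes and 15 actin and migration genes 0 passed 2-fold, with medians of 0.18 and -0.09, and 0.09 and -0.15 against monocyte-depleted cells. Of 13 secretory pathway genes, 0 were higher and Calr, the endoplasmic reticulum chaperone calreticulin, was lower, with a median of -0.36 against other S100a8-rich and -0.02 against monocyte-depleted cells. Cell cycle genes were nearly all too low to compare: 1 of 20 S phase genes (Slbp, 0.10) and 2 of 20 G2/M genes (Hmgb2, 0.26, and Cks2, 0.09) reached the mean of 20 CPM. Ribosomal protein genes took 5.50% of UMIs in Ltf-rich, 8.57% in other S100a8-rich, 5.85% in monocyte-depleted and 18.9% in S100a8-low cells.

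Ltf-rich cells differed among themselves along the Ltf range. Among S100a8-high cells under the same limits of 3 monocyte-list and 10 Prg2 UMIs, binned by Ltf (0, 1 to 4, 5 to 9, 10 to 19, 20 to 49, and 50 or more UMIs, in 335, 250, 139, 197, 145 and 57 cells), median depth was 1724 UMIs in the first bin and 3185 in the last. Ngp was higher in each bin than in the one before, at 1339, 4249, 14151, 21692, 34174 and 50793 CPM. Camp was at 1009, 2972, 6286, 10012, 10994 and 9841 CPM and so reached a plateau within the Ltf-rich cells. Anxa1 went from 2151 CPM in the first bin to 8539 CPM in the last, Cebpe from 414 to 1067 CPM, Fcnb from 38.1 to 409 CPM and Lta4h from 28.2 to 444 CPM.

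In these bins, some other neutrophil genes had less in the last bin than in the first. Retnlg was at 10344, 11377, 11581, 11191, 7745 and 3733 CPM over the same bins. Mmp8 was at 6295 CPM in the first bin and 4571 CPM in the last, Mmp9 at 891 and 603 CPM, Cxcr2 at 240 and 117 CPM, Il1b at 179 and 15.3 CPM, Ccl6 at 1147 and 97.0 CPM and Fth1 at 8979 and 4269 CPM. Cells with 10 to 19 Ltf UMIs thus had as much Retnlg as those with fewer, and the lower Retnlg belonged to the 145 and 57 cells above. Ltf UMIs rise with depth, so all 1355 S100a8-rich cells were also cut into 5 groups of 271 cells by the share of Ltf in their UMIs. Ngp was then at 1018, 864, 4698, 19200 and 38421 CPM, Fcnb at 65.8 CPM in the lowest group and 259 CPM in the highest, and Retnlg at 6953, 5399, 10037, 10062 and 7981 CPM. By this cut, which also takes in cells with monocyte and Prg2 UMIs, Retnlg was lowest in a group with little Ltf and not in the group with most, and Mmp8 was at 4957 CPM in the lowest group and 5513 CPM in the highest.

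**Figure D4:**
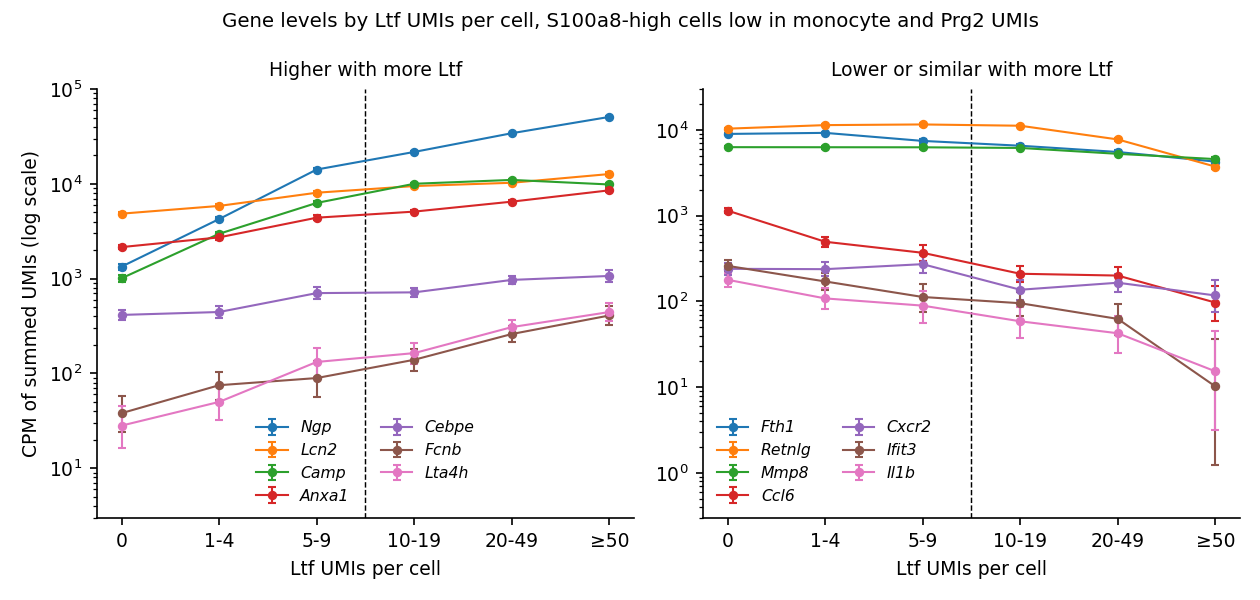
Level of 14 genes (CPM, log axis) against Ltf UMIs per cell in 6 bins of S100a8-high cells with fewer than 3 monocyte-list and 10 Prg2 UMIs (335, 250, 139, 197, 145 and 57 cells), with exact 95% Poisson intervals for counting error. The dashed line marks the minimum of 10 UMIs. Ngp climbs from 1339 to 50793 CPM and Fcnb from 38.1 to 409 CPM, while Retnlg ends at 3733 CPM and Ccl6 at 97.0 CPM.

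By likeness to Ltf over 1237 S100a8-rich cells thinned to 1300 UMIs, the nearest of 1339 other genes was Ngp (Pearson's r = 0.80 on log-transformed UMIs). Then came Camp (0.65), Anxa1 (0.62), Lcn2 (0.56), Pglyrp1 (0.48), Stfa3 (0.41), Dstn (0.38), BC100530 (0.38), Ly6g (0.36) and S100a9 (0.35). Of these cells, 1012 had at least 50 S100a8, fewer than 3 monocyte-list and fewer than 10 Prg2 UMIs. Over them Ngp had 0.78, Camp 0.61, Anxa1 0.60 and Lcn2 0.53. At the other end stood Fxyd5 (-0.37), Malat1 (-0.36), Sirpb1c (-0.35), Ccl9, Fth1, Prdx1 and Ly6e (-0.33 each), Psap (-0.32), Ccl6 and Ctss (-0.31 each). These cells share 1 library and its free RNA, and the values are a description. Sirpb1c has near-identical neighbours and is uncertain as a single gene.

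The other HOXA9 OFF library gave a view of the same genes at 48 h. Over whole libraries of HOXA9 OFF, Ngp summed to 0, 2275 and 11396 CPM at 0, 48 and 96 h, and Camp to 0.2, 675 and 4165 CPM. Since 22 cells at 48 h had 10 Ltf UMIs, 90 cells with at least 2 (median depth 2743.5 UMIs) were compared with 287 S100a8-rich cells that had 0 (median depth 3343 UMIs). Of the 90, 70 had the 10 S100a8 UMIs required of the compared cells, so the groups were also chosen differently on S100a8. There, cells with Ltf had 110 of 4182 genes higher by at least 2-fold (2.63%) and 310 lower (7.41%). Of the 39 genes higher at 96 h that could be compared at both times, 17 were higher at both, which is 43.6% of the 39 and 17.9% of the 95 higher at 48 h. These included Ngp (18290 CPM against 2257 CPM at 48 h), Camp (4621 against 1193 CPM), Lcn2 (6410 against 2299 CPM), Itgb2l, Ly6g, Anxa1, Wfdc21, Lrg1 and Tmem216. Of 113 lower genes 40 were lower at both times (35.4%, and 24.4% of 164).

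Some values of 96 h were different at 48 h. Fcnb was at 842 CPM in cells with Ltf and 823 CPM in those without at 48 h (log2 difference 0.03), beside 1.58 at 96 h. Chil3 was at 7561 CPM against 9613 CPM at 48 h. The primary granule transcripts Mpo, Elane and Prtn3 were still present at 48 h and lower in the cells with Ltf: Mpo was at 162 CPM against 878 CPM, Elane at 117 against 847 CPM and Prtn3 at 993 against 2716 CPM. Serpinb1a and Cd63 of the same list were not lower there, at 1336 against 1247.5 CPM and 1865 against 1676 CPM. The cells compared had been defined with other minima at 48 and 96 h, and the difference between times was not tested.

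**Figure D5:**
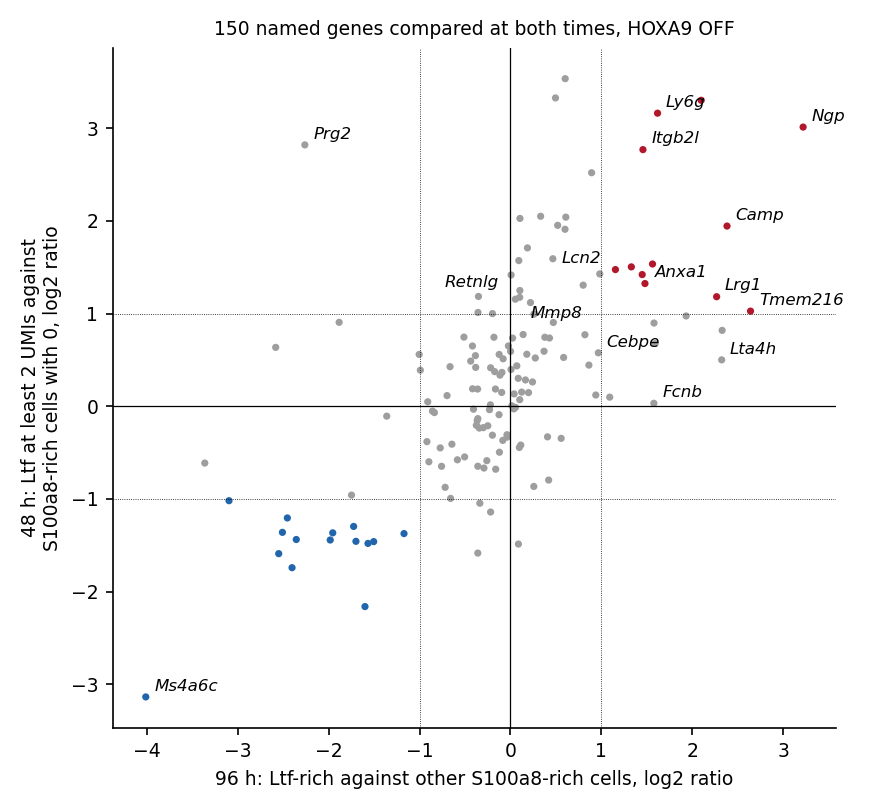
Log2 difference of 150 named genes between Ltf-rich and other S100a8-rich cells at 96 h (x axis) and between cells with at least 2 and with 0 Ltf UMIs at 48 h (y axis), both after adding 10 CPM. Ngp (3.22 and 3.01) and Camp (2.38 and 1.94) lie high on both axes, Fcnb (1.58 and 0.03) on 1 of them, and Prg2 (-2.26 and 2.82) on opposite sides of 0.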

How the data were processed

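Single cells were profiled by droplet RNA sequencing of transcript 3′ ends (10x Chromium v2). The authors deposited 1 table of raw UMI counts for 7821 barcodes and 27998 genes. The submitters' processing notes name Cell Ranger 3.0.1, Scanpy 1.4.6, Seurat 3.0.1 and the mm10 build, and the study's limits of 200 to 6000 genes and 10% mitochondrial UMIs were applied here, which removed 3 of 1513 barcodes of the 96 h HOXA9 OFF library. Counts were summed per group of cells and scaled to 1000000 UMIs, 10 CPM was added, and log2 differences were taken where a gene averaged 20 CPM or more over both groups (Python 3.11.15, numpy 2.4.6, pandas 2.3.3, scipy 1.17.1, matplotlib 3.10.9). A 2-fold size stood in for a test, since each group has 1 library, and no p-value was computed. Intervals are exact 95% binomial or Poisson intervals for counting error only, and the step was tested on simulated data. Scrublet (scanpy 1.11.5) called 6 of 1510 cells doublets, under 0.5%, so it was not relied on, and its calls, 3 of them Ltf-rich, were kept. Genes were named if on a list, among the 15 largest or smallest differences in either main comparison at 50 CPM or more in 1 group, or among the 10 genes most or least correlated with Ltf. The cells, lists and comparisons were chosen with earlier results of these data known. Alternatives changed the pseudocount, minimum, fold, scaling, Ltf minimum, depth weighting and compared cells. Near-identical genes may share UMIs. Levels are compared within a gene only.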

Additional observations from a re-analysis of the deposited data

Results flagged for a closer look

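Prg2, which encodes the major basic protein of eosinophil granules, stood out because its differences at 96 and 48 h had opposite signs. It was at 284 CPM in Ltf-rich and 1403 CPM in other S100a8-rich cells at 96 h (log2 difference -2.26), and at 5323 CPM in cells with at least 2 Ltf UMIs and 745 CPM in S100a8-rich cells with 0 at 48 h (2.82). The difference between the times was not tested. Few cells set these sums: 1 of the 411 Ltf-rich cells held 208 of 297 Prg2 UMIs (70.0%), 9 of the 944 other cells held 2649 of 2865 (92.5%), and 6 of the 90 cells at 48 h held 1313 of 1410 (93.1%). With at least 5 Ltf UMIs required at 48 h (53 cells) the difference was -0.12, and with at least 10 S100a8 UMIs required in the cells with Ltf (70 cells) it was 0.36.

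Tap1, the peptide transporter of antigen presentation, also had opposite signs: 28.7 CPM against 68.1 CPM at 96 h (log2 difference -1.01) and 41.5 CPM against 14.6 CPM at 48 h (1.07). The values at 48 h rest on 11 and 15 UMIs, and the difference between the times was not tested.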

How the results depend on the processing

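Every comparison is between cells of 1 library, so no setting can show how another culture would vary. The fold counted sets the number of genes most directly: against other S100a8-rich cells, 143 genes were higher and 641 lower at 1.5-fold and 7 and 32 at 4-fold, and against all remaining cells 159 and 816, and 8 and 52. Adding 1 CPM in place of 10 gave 63 higher and 270 lower genes against other S100a8-rich cells, and adding 50 CPM gave 17 and 51 (26 and 106 against all remaining cells). A minimum mean of 50 CPM left 92 lower genes (161 against all remaining cells). Totals without Ltf, S100a8 and S100a9 gave 62 higher genes, TMM 90 and the median of ratios 90, and against all remaining cells these scalings gave 122 and 138 higher and 163 and 151 lower genes. Weighting the compared cells to the depth of Ltf-rich cells gave 275 lower genes, and equal weight per cell 105 (167 against all remaining cells). The compared cells mattered for genes lower in Ltf-rich cells: 74 with at least 50 S100a8 UMIs, 47 in monocyte-depleted cells and 54 with monocyte and Prg2 cells left out of both groups. Leaving them out of all remaining cells gave 30 higher and 54 lower genes.

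Of the granule lists, secondary granule genes gave 2 higher genes at 4-fold and 2 against monocyte-depleted cells. Primary granule genes gave 1 lower gene after adding 50 CPM, with a minimum mean of 50 CPM, with equal weight per cell and with at least 50 S100a8 UMIs, 4 with no minimum, and 0 at 4-fold and in monocyte-depleted cells. They gave 0 higher genes at 4-fold, with equal weight, in monocyte-depleted cells and without monocyte and Prg2 cells in both groups. Tertiary granule genes gave 1 lower gene after adding 1 CPM, at 1.5-fold, with at least 5 Ltf UMIs and with weighting to depth. Mature receptor genes gave 1 higher gene at 1.5-fold and 0 lower at 4-fold. A minimum of 5 Ltf UMIs took in 36.9% of cells and 1 of 20 UMIs took in 13.7%. Genes at both times numbered 9 higher and 9 lower after adding 50 CPM, 69 and 181 at 1.5-fold, 2 and 1 at 4-fold, and 11 and 8 with 1 Ltf UMI required at 48 h.

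Of 135 named values past 2-fold, 2135 of 2149 recomputed values kept their direction and 1909 also stayed past 2-fold. The 14 that turned were those of genes low in Ltf-rich cells, after monocyte or Prg2 cells had been left out or S100a8 required. With at least 50 S100a8 UMIs, Prg2 was at 1.41 and Prtn3 at 0.26. In monocyte-depleted cells Prg2 was at 1.36, Prtn3 at 0.46, Ccr2 at 0.18, Ms4a6c at 0.11 and Ms4a6d at 0.27. Prtn3 and Ms4a6c were below the minimum mean of 20 CPM there, so their turned signs rest on few UMIs. Against all remaining cells so depleted, Prg2 was at 0.29, Ccr2 at 0.12, Ms4a6c at 0.070, Ms4a6b at 0.0022 and Ms4a6d at 0.28. All these limits were put on the compared cells only, and 1 of the 411 Ltf-rich cells held 208 of their 297 Prg2 UMIs. With both groups depleted, Ccr2 was at 0.20 and Ms4a6d at 0.29, and Prg2 was not among the values that turned. Alternatives for the 48 h comparison and those that leave out monocyte or Prg2 cells were chosen after seeing the data.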

Other observations

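Lta4h is part of the leukotriene B4 pathway, and other genes of that pathway were read after its value had been seen. Ltb4r1, the high-affinity receptor for leukotriene B4, was at 606 CPM in Ltf-rich cells, 264 CPM in other S100a8-rich cells and 302 CPM in monocyte-depleted S100a8-high cells (log2 difference 1.17 against other S100a8-rich cells). Alox5ap, the helper protein of 5-lipoxygenase, was at 2534, 2793 and 2849 CPM. Lbp, which encodes lipopolysaccharide-binding protein, was at 83.3 CPM against 29.4 CPM in other S100a8-rich cells and 32.1 CPM in monocyte-depleted cells, and was chosen after its value had been seen. Hsd11b1, which regenerates active glucocorticoid, was at 125 CPM against 46.0 CPM and 60.5 CPM in monocyte-depleted cells, and was also chosen after its value had been seen.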
